A study of Sus scrofa with 6 samples.

Results

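The zinc-dependent histone deacetylases (HDACs) were described in porcine 2-cell embryos with and without siRNA knockdown of SIN3A. Of the 10 HDAC genes listed for the description, 9 were found by name among the 17678 genes of the deposited table. They were HDAC1, HDAC2 and HDAC3 of class I, HDAC4, HDAC5, HDAC7 and HDAC9 of class IIa, HDAC6 of class IIb and HDAC11 of class IV. HDAC8, the remaining class I gene of the list, was not found by name, but the reference name table pairs HDAC8 with ENSSSCG00000021200, an entry to which the deposited table gives no name. HDAC10 of class IIb was not on the list and was found by name. Values of HDAC8 and HDAC10 are given beside the 9 members, which makes 11 genes in all, and neither is counted among the members.

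Zinc-dependent HDACs remove acetyl groups from lysines of histones and other proteins. Class I enzymes are mostly nuclear, and HDAC1 and HDAC2 work as catalytic subunits of large corepressor complexes such as SIN3, NuRD and CoREST, while HDAC3 works in the NCoR and SMRT complexes. Class IIa enzymes shuttle between nucleus and cytoplasm and bind transcription factors of the MEF2 family, HDAC6 deacetylates tubulin and cortactin in the cytoplasm, and HDAC11 is the only class IV enzyme. Before the embryonic genome is activated, the transcripts of an embryo are largely those stored in the oocyte.

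Oocytes from ovaries of crossbred (Landrace × Yorkshire × Duroc) peripubertal pigs were injected at metaphase II with a non-specific control siRNA (NC) or with SIN3A siRNAs (KD) and then activated without sperm. At 32 h after activation, 3 NC and 3 KD libraries were made from the polyadenylated RNA of 20 embryos each at the 2-cell stage, so every value is an average over pooled embryos that carry maternal genomes alone. The study calls the replicates independent without saying whether each came from its own batch of oocytes, so the p-values measure the spread between these libraries, which may be partly technical. The values summed to between 11084950 and 11500709 in the 6 libraries, and from the step between low values, which 41.3% to 65.9% of the values below 20 followed, the depth was roughly estimated at 7820000 to 12900000 reads in NC and at 10200000 to 15800000 reads in KD.

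The tissue label was checked against marker genes. Of 14 oocyte and early embryo markers, 11 were found, each with a mean of at least 417, and DPPA3, NLRP5 and DAZL were not found by name. The most abundant was KPNA7, an oocyte importin, with a mean of 39815. Summed over the list, the values were 102845, 103772 and 94321 in NC and 112205, 104135 and 91438 in KD. Of 11 cumulus and granulosa cell markers, 9 were found and 8 of them were below 30 in every library. The exception was VCAN, a matrix proteoglycan, with a mean of 799, which made up most of the sums of 958, 801 and 799 in NC and of 896, 765 and 811 in KD. PTX3, INHA, TNFAIP6, CYP19A1 and AMH were at 0 in at least 1 library. The 3 blood cell markers and NANOG were also at 0 in at least 1 library. The summed values were 20.2, 2.94 and 13.1 in NC and 9.15, 0.915 and 14.2 in KD for the blood cell markers, of which PTPRC was the most abundant. They were 52.4, 59.4 and 110 in NC and 43.7, 85.4 and 89.3 in KD for the 6 markers of later lineages, led by GATA3 with a mean of 19.

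SIN3A, the gene targeted by the siRNAs, measured 37361, 33964 and 32404 (normalized abundance) across the NC libraries, against 3271, 1079 and 4173 across the KD libraries, each in the order of the replicates. Every KD library was far below every NC library. On the log2(value + 1) scale the difference between KD and NC, called the log2 fold change below, was -3.81 (SE 0.31, 95% interval -4.46 to -3.17), and limma gave an adjusted p of 8.45e-06 after Benjamini-Hochberg adjustment over all genes tested. A gene was called at an adjusted p below 0.05. This call was lost when limma was run without a trend of variance on mean (adjusted p = 0.423) and when its variance estimate was made robust (adjusted p = 0.469).

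To place the HDAC genes in the transcriptome of control embryos, their levels were compared per kilobase of mRNA, since a longer mRNA yields more fragments. The length was the median over the mRNAs that RefSeq lists for the gene in Sscrofa11.1. HDAC1 was highest with 431 ± 31.8 per kilobase (SD, n = 3), followed by HDAC3 with 335 ± 30.4 and HDAC2 with 232 ± 15.4. The ranges of these 3 genes over the NC libraries did not overlap each other. HDAC1 stood above HDAC3, HDAC3 above HDAC2 and HDAC2 above each of the 8 other HDAC genes in all 6 libraries. Among 10325 tested genes with a RefSeq length, the levels of HDAC1, HDAC3 and HDAC2 exceeded those of 84.1%, 80.3% and 73.7% of genes.

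A gap separated these 3 genes from the rest of the family. The fourth gene was HDAC9, with 15.9 ± 2.08 per kilobase, 14.6-fold below HDAC2. RefSeq lists 50 HDAC9 mRNAs of 4062 to 16582 bases, and the ratio was 7.44 with the shortest and 30.4 with the longest HDAC9 mRNA. Over all libraries, the highest level of any of the 8 lower genes was 18 per kilobase, and the lowest level of HDAC1, HDAC2 or HDAC3 was 172. HDAC7 followed with 14.3 ± 3.7, HDAC11 with 10.1 ± 1.77, HDAC8 with 9.15 ± 0.747 and HDAC6 with 8.22 ± 0.933 per kilobase. From HDAC9 down to HDAC6, the ranges of neighbours in this order overlapped, while genes further apart in it did not all overlap. With median lengths, the NC range of HDAC9 lay above those of HDAC11, HDAC8 and HDAC6. That of HDAC7 lay above those of HDAC8 and HDAC6. With the longest mRNA of each gene, the NC mean of HDAC9 was 7.64 per kilobase. This was below HDAC7 with 14.3, HDAC11 with 10.1 and HDAC6 with 8.13, and above HDAC8 with 5.64. HDAC8 has mRNAs of 2021 and 8707 bases in RefSeq, and its level was 24.3 per kilobase with the shorter and 5.64 with the longer.

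The lowest levels in NC were those of HDAC5 with 3.51 ± 1.05, HDAC10 with 1.24 ± 0.333 and HDAC4 with 0.902 ± 0.154 per kilobase (SD, n = 3). HDAC5 was apart from HDAC6 above it and from HDAC10 below it, while the ranges of HDAC10 and HDAC4 overlapped. HDAC5 exceeded 4.13% of the tested genes with a RefSeq length in level per kilobase. Divided by the step between low values, which not all low values followed, the values of HDAC4 came to 4.35 to 11 and those of HDAC10 to 1.03 to 7.85, a rough measure of the reads behind them. Both genes had a mean below 10 over the 6 libraries and were not tested.

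Summed over the 11 genes, class I made up 95.5%, 94.3% and 94.9% of the HDAC level per kilobase in the NC libraries and 95.1%, 95.5% and 94.3% in the KD libraries. Class IIa made up 2.65%, 3.71% and 3.42% in NC and 3.04%, 2.76% and 3.67% in KD. The shares of the groups overlapped for both classes. Class IIb made up 0.891% ± 0.0925 in NC and 0.826% ± 0.19 in KD, and class IV 0.958% ± 0.194 and 1.05% ± 0.216 (SD, n = 3 each). The sum itself was 1049, 1030 and 1104 per kilobase in NC and 1138, 1142 and 1058 in KD. The lowest KD sum lay below the highest NC sum. These sums are given as a description, without a test.

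**Figure D1:**
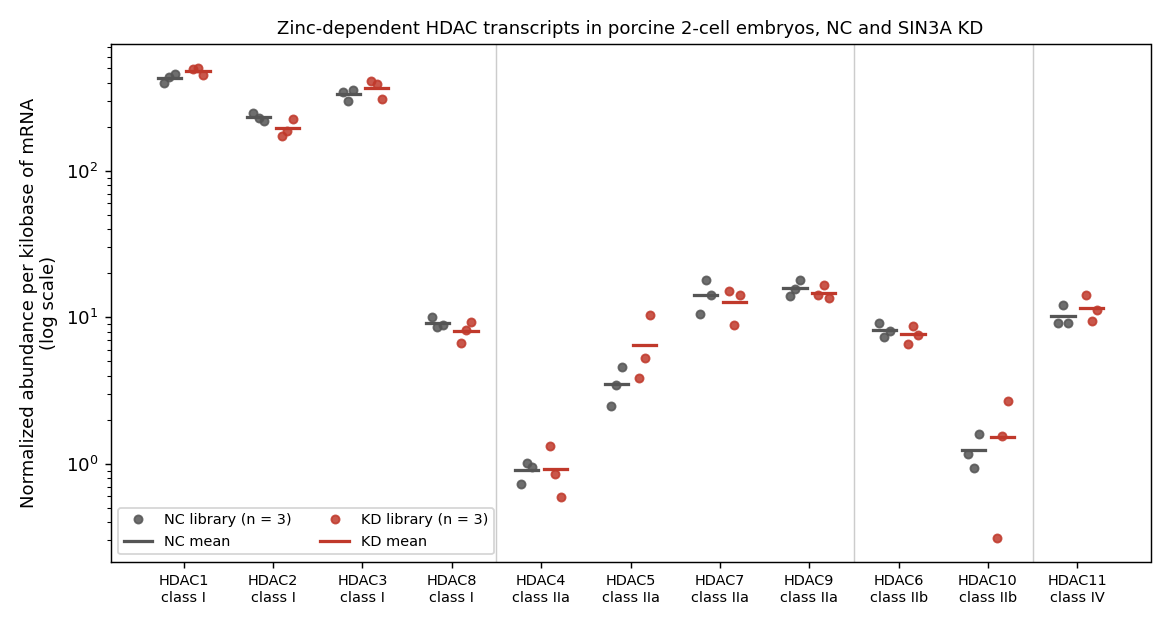
Normalized abundance per kilobase of median RefSeq mRNA (log scale) of the 11 HDAC genes, ordered by class, with 1 point per library of 20 embryos and a line at the mean of the 3 NC or 3 KD libraries. HDAC1, HDAC2 and HDAC3 lie at or above 172 in every library, all other HDAC genes lie at or below 18, and the NC and KD points overlap for every gene.

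The classes differ in the catalytic site of the enzyme. Class I, IIb and IV enzymes carry a tyrosine there that takes part in catalysis, which class IIa enzymes of vertebrates replace by a histidine. The codons below were located in the RefSeq coding sequences of Sscrofa11.1 and are shown because they set the class IIa genes apart from the other classes. They do not follow the levels, as HDAC11 carries the same codon as HDAC1. The capitals mark the tyrosine codon (TAC) in HDAC1, HDAC3, HDAC2 and HDAC11 and the histidine codon (CAT) in HDAC9 and HDAC7. Each stretch of 30 bases lies in a single exon and is written along the coding strand.
HDAC1 (class I, chr6:88781995-88782024, plus strand): ggaggaggtggcTACaccattcgtaatgtc
HDAC3 (class I, chr2:143278910-143278939, minus strand): gggggcggcggcTACacggtccggaacgtc
HDAC2 (class I, chr1:79874391-79874420, minus strand): ggaggaggtggaTACacaatccgtaatgtt
HDAC9 (class IIa, chr9:88112908-88112937, plus strand): ctagaaggaggaCATgatctgacagccatc
HDAC7 (class IIa, chr5:78153587-78153616, minus strand): ttggagggcggcCATgacctcacagccatc
HDAC11 (class IV, chr13:70862161-70862190, minus strand): acctcgggtgggTACcagaagcgcacggcc
The mRNAs of different HDAC genes had little sequence in common over longer stretches. Of 55 pairs among the 11 genes, 1 pair, HDAC4 and HDAC5, shared any word of 31 bases, and it shared 2.

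The effect of SIN3A knockdown was then tested gene by gene. Of the 9 members, 8 reached a mean of 10 and were tested, and none passed an adjusted p of 0.05 in limma, where 0.159% of all 11986 genes tested passed, 0.0584% as higher and 0.1% as lower in KD. None had an unadjusted p below 0.05 either, against 4.61% of all genes, and the lowest was 0.063 for HDAC2. No member had groups without overlap, which 9.79% of all genes had, 4.85% with KD above and 4.94% with KD below NC. Of the 8 tested members, 4 had a positive and 4 a negative log2 fold change, with a median of 0.019, against a median of 0.0026 over all genes tested. The median size of the log2 fold change was 0.16 in the members and 0.12 in all genes. HDAC8 was tested as well and did not pass. The adjusted p was 0.997 for each of these 9 genes.

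Among class I genes, HDAC1 (ENSSSCG00000003613), which lies on chromosome 6 from 88749611 to 88785220 and has 14 exons, measured 845, 922 and 980 across the NC libraries and 1047, 1073 and 964 across the KD libraries. KD replicates 1 and 2 were above all NC libraries, and KD replicate 3 was within the NC range. This was a log2 fold change of 0.17 (SE 0.10, 95% interval -0.05 to 0.39), which corresponds to a 1.12-fold level in KD with an interval of 0.97 to 1.31. The exact two-sided permutation test gave p = 0.2, where 3 libraries against 3 cannot go below 0.1.

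HDAC2 (ENSSSCG00000004432), the close relative of HDAC1, lies on chromosome 1 from 79867713 to 79901597. Its normalized abundances were 517, 475 and 454 in NC and 357, 388 and 468 in KD. KD replicates 1 and 2 were below all NC libraries, while KD replicate 3 was above the lowest NC library. Its log2 fold change was -0.26 (SE 0.13, 95% interval -0.54 to 0.02; exact permutation p = 0.2). In relation to each other, HDAC1 was 1.6, 1.9 and 2.11 times as abundant as HDAC2 per kilobase in NC and 2.86, 2.7 and 2.01 times in KD. The ratio in KD replicate 3 lay below that of NC replicate 3, so that the groups overlapped. Without KD replicate 3, the log2 fold change of HDAC1 was 0.21 with an adjusted p of 0.82 from limma, and that of HDAC2 was -0.37 with an adjusted p of 0.641.

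HDAC3 (ENSSSCG00000014388), on chromosome 2 from 143273188 to 143287421, had values of 673, 586 and 699 in NC and of 802, 763 and 603 in KD. Its highest values were in KD replicates 1 and 2, and KD replicate 3 was among the low ones. HDAC3 had a log2 fold change of 0.14 (SE 0.13, 95% interval -0.13 to 0.41; exact permutation p = 0.4). HDAC8, on chromosome X from 58210182 to 58450681, had values of 53.7, 46.2 and 47.3 in NC and of 35.9, 44.2 and 49.8 in KD. Its log2 fold change was -0.19 (SE 0.27, 95% interval -0.75 to 0.37), and the groups overlapped.

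Among class IIa genes, HDAC9 (ENSSSCG00000015368, chromosome 9 from 87164400 to 88192803) had values of 111, 125 and 144 in NC and of 113, 133 and 108 in KD. All KD values but the lowest lay within the NC range. Its log2 fold change was -0.10 (SE 0.19, 95% interval -0.49 to 0.29). HDAC7 (ENSSSCG00000027859, chromosome 5 from 78150554 to 78186051) had values of 44.8, 76.1 and 59.8 in NC and of 64.2, 37.4 and 60.3 in KD. The libraries of both groups were widely spread, with coefficients of variation of 25.9% in NC and 26.8% in KD. The log2 fold change of HDAC7 was -0.16 (SE 0.28, 95% interval -0.76 to 0.44), and it was 0.02 without NC replicate 2 and 0.08 without KD replicate 2.

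HDAC5 (ENSSSCG00000017366, chromosome 12 from 19077910 to 19119463) had values of 9.6, 13.3 and 17.6 in NC and of 14.9, 20.2 and 40.1 in KD. KD replicate 3 held the highest value, KD replicate 2 was also above NC, and KD replicate 1 was within the NC range. HDAC5 had a log2 fold change of 0.76 (SE 0.46, 95% interval -0.20 to 1.73; exact permutation p = 0.2), which was 0.38 without KD replicate 3. HDAC5 was the single tested HDAC gene whose interval reached beyond a 2-fold change. HDAC4 (ENSSSCG00000024777, chromosome 15 from 138378237 to 138657266) had values of 5.87, 8.23 and 7.71 in NC and of 10.7, 6.89 and 4.79 in KD, so that both the highest and the lowest value were from KD.

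HDAC6 (ENSSSCG00000025545) of class IIb, on chromosome X from 42917911 to 42941894, had values of 35.6, 28.4 and 31.5 in NC and of 25.7, 33.9 and 29.2 in KD. The groups overlapped, with a log2 fold change of -0.10 (SE 0.31, 95% interval -0.77 to 0.56). HDAC10 (ENSSSCG00000000971, chromosome 5 from 439142 to 445337) had values of 3.78, 3.05 and 5.16 in NC and of 1, 5.03 and 8.64 in KD. HDAC11 (ENSSSCG00000028031) of class IV, on chromosome 13 from 70860650 to 70879863, had values of 22.9, 30.7 and 23.1 in NC and of 36, 23.7 and 28.5 in KD. One KD library was above the NC range and the others were within it. The log2 fold change of HDAC11 was 0.19 (SE 0.34, 95% interval -0.53 to 0.90).

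Under the main fit, which used the variance trend, the intervals set a limit on the changes that these libraries leave room for. Intervals from fits with another variance estimate are not given here. In 7 of the 8 tested members, and in HDAC8, the 95% interval lay within a 2-fold change in either direction, which was the case for 80.1% of all genes tested. In 6 of the 8 members, and in 8487 of all 11986 genes tested, it lay within the log2 fold change of 0.8 that the study used as its threshold, the exceptions among the members being HDAC5 and HDAC11. The intervals were narrowest in the 3 abundant class I genes.

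**Figure D2:**
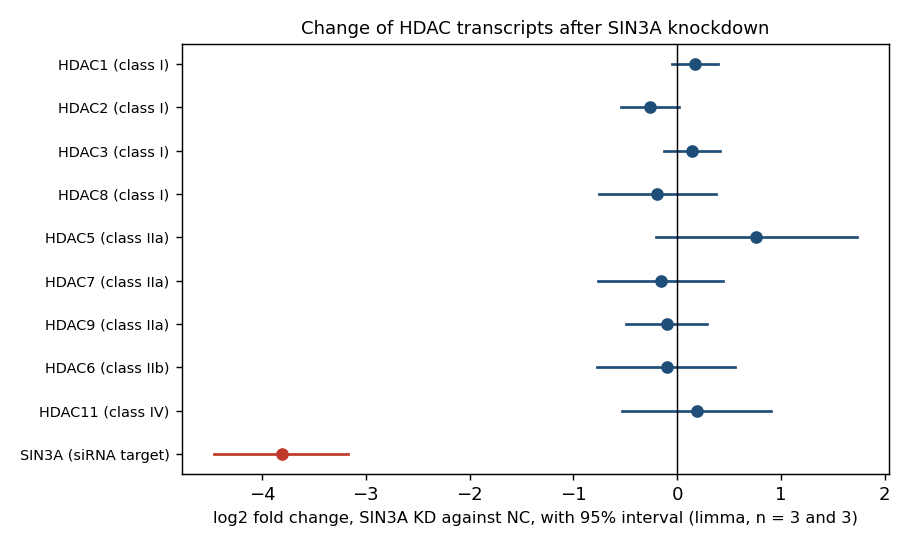
Log2 fold change of SIN3A KD against NC embryos (x axis) for the 9 tested HDAC genes and for SIN3A, with points for the estimate and lines for the 95% interval from limma (3 libraries per group). The interval of every HDAC gene includes 0, and that of SIN3A runs from -4.46 to -3.17.

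The partners and counterparts of the HDACs were examined with 8 lists of 104 genes. Of these, 98 were found and 94 tested, and 3 passed an adjusted p of 0.05 in limma, SIN3A, VCP and YWHAH, where 0.159% of all genes tested passed. That these 3 genes passed was known when the lists were chosen, so nothing is read from the count. The same holds for the counts by list below that include these genes, at the adjusted and at the unadjusted p. In the SIN3 complex, 15 of 15 genes were tested, 0 passed as higher and 1, SIN3A, as lower, against 0.0584% and 0.1% of all genes. An unadjusted p below 0.05 was found for 2 of them, SIN3A and SUDS3, against 4.61% of all genes, and the median log2 fold change was -0.017, against 0.0026 over all genes. Next to SIN3A with 6394 per kilobase in NC, the highest level was that of SUDS3, a SIN3 subunit, with 3220. SUDS3 had values of 9452, 8491 and 8004 in NC and of 10498, 10965 and 9908 in KD. All KD values were above all NC values, but the log2 fold change of 0.28 (SE 0.09) had an adjusted p of 0.679 from limma. Groups without overlap were found for 2 genes of this list with KD above NC and for 1, SIN3A, with KD below. The shares over all genes tested were 4.85% and 4.94%. Per kilobase, SIN3A was 17.4, 14.5 and 13 times as abundant as HDAC1 in NC and 1.23, 0.395 and 1.7 times in KD. Compared with HDAC2 it was 27.7, 27.5 and 27.4 times as abundant in NC and 3.52, 1.07 and 3.42 times in KD. In 5 of the 6 libraries the SIN3A level was thus still above that of HDAC1, the exception being KD replicate 2.

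In the other class I complexes no gene passed the adjusted p of limma, which 0.159% of all genes passed. Of 24 NuRD, CoREST, MiDAC and MIER genes, 22 were tested, of which 2, MIER3 and RCOR1, had an unadjusted p below 0.05, against 4.61% of all genes, and the median log2 fold change was 0.049. CDK2AP1 and RCOR2, a NuRD and a CoREST subunit, had the highest levels of this list in NC with 1417 and 836 per kilobase. RBBP4 and RBBP7, with 1072 and 2887 per kilobase in NC, were counted in the SIN3 list alone. Among those with a mean of at least 100, the largest differences were those of MBD2, which binds methylated CpG, and of MIER3, both 0.28 on the log2 scale (limma, adjusted p = 0.997). Of the 5 NCoR and SMRT genes around HDAC3, 4 were tested, none had an unadjusted p below 0.05, and the median log2 fold change was -0.0035. NCOR1, the corepressor scaffold, and TBL1XR1 were the highest with 541 and 407 per kilobase in NC. GPS2 had values of 231, 247 and 261 in NC and of 221, 190 and 207 in KD. The KD libraries lay below the NC libraries, as in 4.94% of all genes tested. Limma gave a log2 fold change of -0.26 with an adjusted p of 0.997. For NCOR1 it was 0.14.

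Of 24 genes that act with class IIa enzymes, 21 were tested, and 1 passed as higher and 0 as lower, against 0.0584% and 0.1% of all genes. In this list 3 genes, YWHAH, ANKRA2 and SIK1, had an unadjusted p below 0.05, against 4.61% of all genes. YWHAH was known to pass when the list was chosen, so nothing is read from these counts. The median log2 fold change was 0.064. The gene that rose was YWHAH, which encodes the eta form of the 14-3-3 proteins that hold phosphorylated class IIa enzymes in the cytoplasm. Its values were 1278, 1204 and 1337 in NC and 1923, 2016 and 1653 in KD, with every KD library above every NC library. In limma this was a log2 fold change of 0.55 (SE 0.10) with an adjusted p of 0.0342. The call was lost under quantile normalization with an adjusted p of 0.0587 from limma, and without the variance trend with 0.709. It was also lost without NC replicate 1, NC replicate 2, NC replicate 3, KD replicate 1 or KD replicate 2. The adjusted p from limma was then 0.0836, 0.319, 0.0943, 0.281 and 0.329. The log2 fold change was 0.53 under quantile normalization, 0.55 without the trend and 0.49 to 0.58 without 1 of these libraries. YWHAB, another 14-3-3 gene, and the kinase MARK2 had the highest levels with 5412 and 975 per kilobase in NC, and their log2 fold changes were 0.00 and 0.10. The kinase PRKD2 had values of 154, 133 and 145 in NC and of 187, 194 and 157 in KD. The groups did not overlap, which held for 3 genes of this list, all with KD above NC, against 4.85% of all genes. Limma gave a log2 fold change of 0.31 with an adjusted p of 0.997.

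Of 14 partners and substrates of HDAC6, 11 were tested, and 0 passed as higher and 1 as lower, against 0.0584% and 0.1% of all genes. An unadjusted p below 0.05 was found for 2, VCP and CTTN, against 4.61% of all genes. As VCP was known to pass when the list was chosen, nothing is read from these counts. The median log2 fold change was -0.083. The gene that fell was VCP, an ATPase that extracts ubiquitinated proteins and binds HDAC6. Its values were 143, 217 and 148 in NC and 48.5, 25.3 and 61.9 in KD, and all KD values were below all NC values. In limma this was a log2 fold change of -1.95 (SE 0.29) with an adjusted p of 0.00471. Without the variance trend, limma gave the log2 fold change as -1.95 with an adjusted p of 0.525. The substrate gene CTTN, which encodes cortactin, and the chaperone gene HSP90AA1 were the highest of this list with 2381 and 5875 per kilobase in NC. CTTN had a log2 fold change of 0.21 and HSP90AA1 one of 0.06, and limma gave both an adjusted p of 0.997.

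Among sirtuins and acetyltransferases, none passed the adjusted p of limma and none had an unadjusted p below 0.05, against 0.159% and 4.61% of all genes. Of 7 sirtuins, the NAD-dependent deacetylases, all 7 were tested, and the median log2 fold change was -0.053. SIRT1 was the highest with 190 per kilobase in NC, followed by SIRT7 with 74.9, so that SIRT1 was below HDAC2. SIRT1 had a log2 fold change of -0.16 and SIRT3 one of 0.18, the largest among sirtuins with a mean of at least 100 (limma, adjusted p = 0.997 for both). Of 11 histone acetyltransferases, 10 were tested, with a median log2 fold change of 0.059. CREBBP and KAT2A were the highest with 682 and 652 per kilobase in NC, above HDAC1. KAT2A had values of 1878, 2201 and 2034 in NC and of 2256, 2386 and 2207 in KD. These groups did not overlap, with KD above NC as in 4.85% of all genes. Limma gave a log2 fold change of 0.17 with an adjusted p of 0.997. EP300, the relative of CREBBP, also had a log2 fold change of 0.17.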

How the data were processed

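Per the labels and the study's methods, the authors quantified reads on the Sscrofa11.1 transcripts using Salmon 0.14.1 and used DESeq2. The deposited values are a normalized signal for each Ensembl gene in the 6 libraries. Low values lay on a common spacing in 41.3% to 65.9% of cases (values below 20, within 0.05 of a whole multiple), so the values were not turned back into reads and count models were not used, although the planned design allowed for them. The added spike-in mRNAs were not used here, so total mRNA per embryo cannot be assessed.

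The 11986 genes whose mean over the 6 libraries reached 10 were tested by limma 3.58.1 (R 4.3.3) after log2(value + 1), with group as the only term, a mean-variance trend and Benjamini-Hochberg adjustment. For low genes, the added 1 makes fold changes smaller. The fit was tested on simulated data. For single genes an exact two-sided permutation test was added (Python 3.11.15, numpy 2.4.6, pandas 2.3.3). mRNA lengths, positions and coding sequences came from RefSeq for Sscrofa11.1 (pysam 0.24.0, biopython 1.88), matched for 10325 tested genes (86.1%). Of the partner genes found, 9 carried no name in the table and were named through the reference name table. MIDEAS, TBL1X, SFN, YWHAE, TUBA1A and TUBA1C were not found by name, and CHD5, RFXANK, UBXN1 and KAT2B were not tested. The genes of 1 list, which is part of the totals, are not reported here.

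The members and lists were chosen with earlier results of these data known. Named are all HDAC genes, SIN3A and, in each list, the genes past the adjusted p, the 2 with the highest NC level per kilobase and the 2 with the largest change at a mean of at least 100. RCOR1, ANKRA2, SIK1, RBBP4 and RBBP7 are exceptions, chosen after their values had been seen. Tried in turn were a pseudocount of 0.1 or 10, testing all genes, a higher minimum mean of 100, quantile normalization, TMM-like rescaling, no variance trend, the robust empirical Bayes step, the replicate block, leaving out each library, and the shortest or longest mRNA. Immunofluorescence, qPCR and embryo culture were not analysed here.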

Additional observations from a re-analysis of the deposited data

How the results depend on the processing

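No HDAC member passed an adjusted p of 0.05 in those of the 15 alternative fits in which it was tested. HDAC5, HDAC6, HDAC7 and HDAC11 were not tested at a mean of at least 100, and HDAC4 was tested only in the fit without a filter. The count of genes called over the table was 19, 0 without the variance trend (622 at an unadjusted p below 0.05) and 11 to 19 when 1 library was left out, with 12 without NC replicate 2 or 3 and 11 without KD replicate 1 or 2. Among the partner lists, the 3 calls became 0 without the variance trend. The log2 fold change of SIN3A was -3.81 without the trend (adjusted p = 0.423) and -3.81 with the robust step (adjusted p = 0.469), and -4.20 to -3.22 over the fits that lacked 1 library. The cause was not tested. Of 148 comparisons of HDAC genes with an alternative, 2, both of HDAC7, reversed, and in the other 146 tested genes kept their direction and side of the threshold, while the untested HDAC4 and HDAC10 moved by less than the spread between replicates, with changes of sign. Across fits that each lacked 1 library, the log2 fold change of HDAC7 ranged from -0.35 to 0.08 (0.02 without NC replicate 2 and 0.08 without KD replicate 2), that of HDAC1 from 0.11 to 0.22, that of HDAC2 from -0.37 to -0.17, that of HDAC3 from 0.06 to 0.26, that of HDAC5 from 0.38 to 1.06, that of HDAC4 from -0.28 to 0.23, that of HDAC10 from -0.50 to 0.63, that of HDAC6 from -0.20 to -0.01, that of HDAC8 from -0.29 to -0.06, that of HDAC9 from -0.19 to -0.01 and that of HDAC11 from 0.04 to 0.33. The size of these differences varied with the library left out. With the longest mRNA, 5 of the 9 members kept their place in the order of levels, as HDAC9 moved below HDAC6. The class I share in NC was 94.9%, 95.6% with the longest and 93.6% with the shortest mRNA.

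After subtraction of the group means, same-numbered NC and KD libraries correlated at 0.109, 0.111 and 0.0872 (mean 0.103), and differently numbered ones at -0.0828 to -0.0215 (mean -0.0513). Because the group means were subtracted, the negative values follow largely from the positive ones and are no separate observation. Every library correlated best with the one of its own number, which is a hint from the data and not from the design. As 1 pair was below 0.1, the main fit did not pair the samples by number, which does not settle whether they were paired. In the fit with a replicate block, 26 genes and no HDAC member passed, and SIN3A stayed at -3.81. Divided by the step between low values, HDAC4, HDAC5 and HDAC10 came to 4.35 to 11, 9.12 to 36.5 and 1.03 to 7.85. How far depth limits these genes was not tested.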

Other observations

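ANKRA2, an ankyrin-repeat adapter that binds class IIa HDACs, was named after its values were seen. Its values were 57.5, 89.3 and 61.4 in NC and 121, 110 and 112 in KD. All KD libraries were above all NC libraries, as in 4.85% of all genes tested. The log2 fold change was 0.74 (SE 0.22, 95% interval 0.27 to 1.20), with an unadjusted p of 0.00369 and an adjusted p of 0.58 from limma.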
